A study of Mus musculus with 9 samples.

Results

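Genes of the sodium and calcium pumps, 7 in all, were followed through RNA immunoprecipitation sequencing (RIP-seq) of CELF2, an RNA-binding protein, from newborn mouse cortex. They were 3 genes for the β subunits of the Na,K-ATPase (*Atp1b1*, *Atp1b2*, *Atp1b3*), 1 for the calcium pump of the endoplasmic reticulum (*Atp2a2*, SERCA2) and 3 for calcium pumps of the plasma membrane (*Atp2b1*, *Atp2b2*, *Atp2b4*, also PMCA1, PMCA2 and PMCA4). The 7 genes were chosen by name, all of their RefSeq transcript rows were taken, and these were 36 of the 107384 rows in the deposited table. All 7 passed the filter on low counts and were among the 15263 protein-coding genes tested.

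The Na,K-ATPase moves sodium out of the cell and potassium in, and so restores the ion gradients that neuronal firing runs down. Its catalytic α subunit needs a β subunit, a glycoprotein, to fold and to reach the membrane, so the *Atp1b* genes encode partners of a P-type pump and not the ATPase itself. SERCA and PMCA pumps are single-chain P-type ATPases that remove calcium from the cytosol, the first into the endoplasmic reticulum and the second out of the cell.

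All 9 libraries came from the cytoplasmic fraction of cortices of mice at postnatal day 0, heterozygous for the *Celf2* knockin (KI) allele p.R493H. A rabbit antibody to CELF2 gave the 3 CELF2-KI RIP libraries (called CELF2 RIP from here), normal rabbit IgG gave the 3 IgG RIP libraries (the IgG control), both at 10 µg over 3 hours, and fraction kept aside before any antibody gave the 3 input libraries. The controls therefore carried the KI allele too, no wild-type RIP was among the samples, and whether the antibody separates the variant from wild-type CELF2 is not stated in the sources used here. The replicates were described as biological, and the number of animals behind each library was not given in the sources used here. The fraction was a mixture of neurons, glia and vascular cells.

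Estimated counts summed to 15919600–20052716 per CELF2 RIP library, 17365561–28773130 per IgG control library and 69125700–105116427 per input library. The 45S pre-rRNA row took 10.8–34.9% of the counts in the IgG control, against 0.809–1.76% in CELF2 RIP and 0.405–0.797% in input, and 9344325–14960841 counts of protein-coding genes remained per IgG control library. IgG control replicates 1 and 2 held the largest shares. For the pump genes followed here, calls that end without both of them are named beside the gene. Genes of the other lists were not read without these libraries. The member with the fewest counts in any library was *Atp1b3*, with 654. Levels are CPM, counts scaled to a common library size with TMM factors. They depend on transcript length and are compared between libraries, not between genes. A gene was called higher or lower at a false discovery rate (FDR, Benjamini-Hochberg over all genes tested) under 0.01 together with a change of at least 2-fold in edgeR's quasi-likelihood test.

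Against the IgG control, *Atp1b1*, *Atp1b3* and *Atp2b4* rose in CELF2 RIP and none of the 7 fell. All 3 calls fell short of 2-fold when libraries were scaled by total counts of protein-coding genes (log2 fold changes of 0.66, 0.83 and 0.81) or by the upper quartile (0.76, 0.94 and 0.92), scalings that moved the median of all genes by −0.37 and −0.26. These 3 of 7 stand beside 13.4% of all genes tested that were called higher and 13.5% that were called lower. The count of 0 lower was also 0 at an unadjusted p under 0.05 and with DESeq2's Wald test. Against input, *Atp1b2* fell, which is 1 of 7 beside 15.5% of all genes, and 0 rose, beside 14.6%. At an unadjusted p under 0.05 in edgeR 5 of the 7 were above input, but all of these differences were under 2-fold, and DESeq2's Wald test also called 0. No member was called higher than both controls (7.58% of all genes were), although 5 of 7 were above both at unadjusted p under 0.05, and DESeq2's Wald test again called 0. Lower than both controls 0 were called, beside 9.52% of all genes, with 0 also at an unadjusted p under 0.05 in edgeR and 0 in DESeq2. At an FDR under 0.01 with no demand on size, 5 members were higher than the IgG control (22.9% of all genes), 4 were higher than input (26.8%) and 4 were higher than both (17.4%). By the same rule 0 were lower than the IgG control (19.2%) and 1 was lower than input (20.1%).

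**Figure D1:**
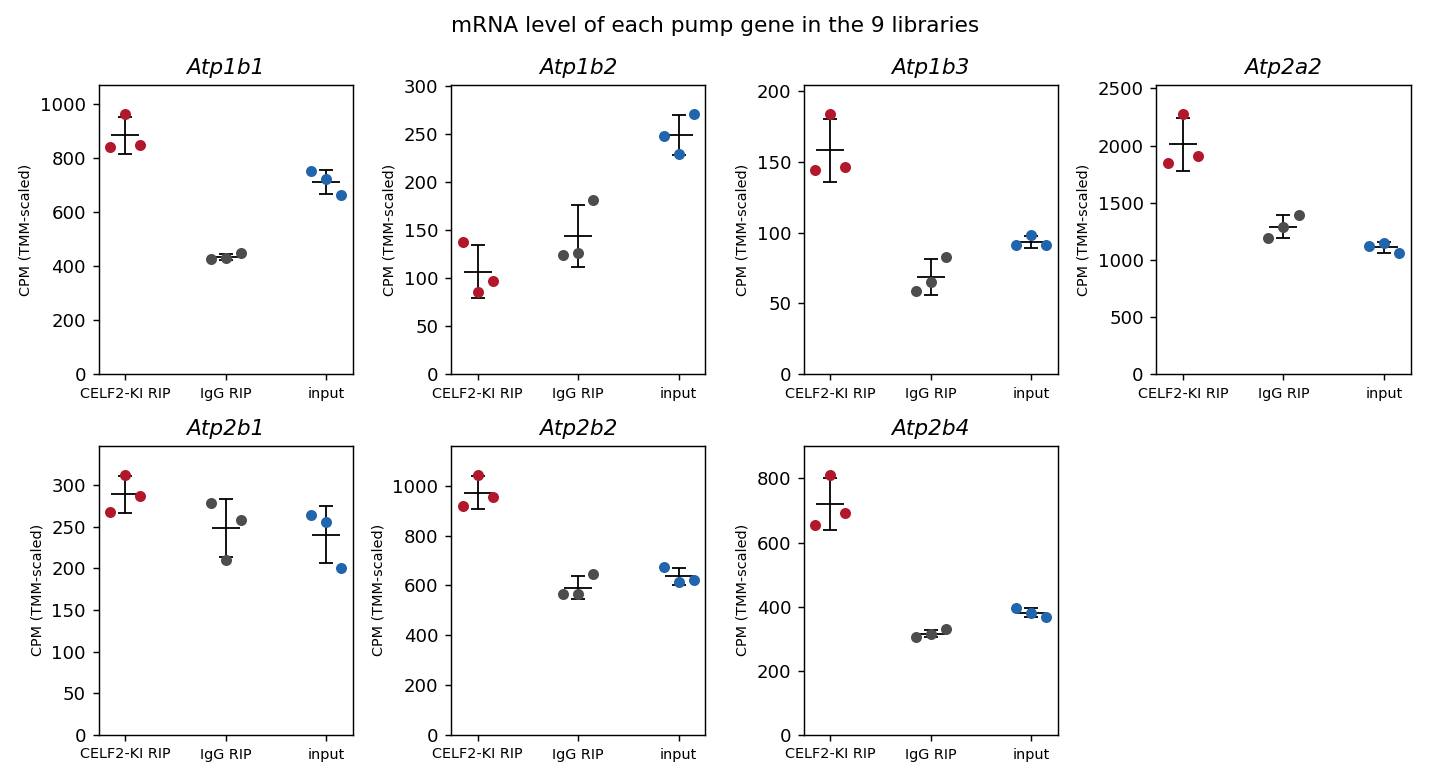
CPM of each of the 7 pump genes (y axis, from 0) in the 3 CELF2 RIP, 3 IgG control and 3 input libraries (x axis). Points are libraries and bars give the mean with SD. In 5 of the 7 panels the 3 CELF2 RIP points lie above all 6 control points, in *Atp2b1* they overlap the IgG control, and in *Atp1b2* they overlap the IgG control and lie below input.

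The β subunit genes did not move as a group. *Atp1b1* (chromosome 1, 164437099–164458355 in GRCm38) encodes β1, the β subunit of most tissues and of neurons. Its level was 842, 965 and 849 CPM in CELF2 RIP replicates 1, 2 and 3, 427, 429 and 447 CPM in the IgG control, and 751, 723 and 664 CPM in input. The CELF2 RIP libraries were thus well above the IgG control and only just above input, and the IgG control libraries were below both other conditions. *Atp1b1* rose over the IgG control by 1.03 on the log2 scale (SE 0.10, FDR 2.17e-05), a fold of 2.04 that sits at the 2-fold limit. The call was lost when CELF2 RIP replicate 2 was left out (log2 fold change 0.96), when input replicate 2 was left out (0.92), when IgG control replicates 1 and 2 were left out together (0.87), and in DESeq2's Wald test (0.96). Against input the log2 fold change of *Atp1b1* was 0.31 (SE 0.10, FDR 0.0183), with a 95% interval from 0.10 to 0.53, and its sign turned under 2 of the other scalings (−0.15 and −0.030).

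*Atp1b3* (chromosome 9, 96332655–96364431) encodes β3. Its level was 144, 184 and 147 CPM in CELF2 RIP, 58.6, 64.8 and 83.1 CPM in the IgG control, and 91.2, 98.7 and 91.1 CPM in input. Every CELF2 RIP library was above every control library. *Atp1b3* had the largest rise of the 7 over the IgG control, at 1.20 on the log2 scale (SE 0.15, FDR 9.87e-05), close to that of *Atp2b4*. Over input its log2 fold change was 0.76 (SE 0.15, FDR 0.00142), under 2-fold. The call over the IgG control held with each library left out in turn (log2 fold change 1.08–1.36) and was lost without IgG control replicates 1 and 2 together (0.82), replicate 3 being the highest of the IgG control libraries.

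*Atp1b2* (chromosome 11, 69599728–69605978) encodes β2, which is made by glia as well as neurons and is also known as the adhesion molecule on glia. Its level was 138, 85.1 and 96.3 CPM in CELF2 RIP, 124, 126 and 181 CPM in the IgG control, and 247, 229 and 271 CPM in input. Here the order was turned around, with both kinds of precipitate below input, and CELF2 RIP replicate 1 inside the range of the IgG control. *Atp1b2* fell in CELF2 RIP against input by 1.23 on the log2 scale (SE 0.20, FDR 0.000455), a fold of 2.34, and the call held with each library left out (−1.46 to −1.09). Against the IgG control its log2 fold change was −0.43 (SE 0.20, FDR 0.0907), the lowest of the 7. The IgG control itself was below input, at a log2 fold change of −0.79 (SE 0.20, FDR 0.0108). Without IgG control replicates 1 and 2 these values were −0.87 and −0.46.

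Markers of the cell types in the fraction moved between conditions, and their part in the results for the β subunit genes and the other pumps was not tested. Input and precipitates came from one fraction, so differences between conditions are in RNA recovered and not in numbers of cells. Within a library, the number of cells of a type and the RNA per cell cannot be told apart. All 6 genes listed as markers of excitatory neurons were detected in every library. Their summed level was 2956–3596 CPM in CELF2 RIP, 1532–1927 CPM in the IgG control and 2246–2574 CPM in input. Most of that sum was *Tubb3* alone, a gene of neurons in general, at 1733–2042, 729–1074.5 and 1518–1703 CPM in the same order. The sum is therefore not a measure of excitatory neurons alone. *Tbr1*, *Bcl11b* and *Tubb3*, 3 of the 6, were called higher than the IgG control, beside 13.4% of all genes. Other scalings were not read for them. *Neurod6* went the other way, with log2 fold changes of −0.14 over the IgG control and −0.64 over input, and was not called. The 6 radial glia markers summed to 165–256, 454–498 and 572–615 CPM in the same order. Of these, 3 were called lower than the IgG control (13.5% of all genes) and 3 lower than input (15.5%). The 6 astrocyte markers summed to 835–1213, 649–709 and 1106–1288 CPM, with 1 called higher and 1 lower than the IgG control. None of the markers in these 3 lists was at 0 in every library.

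*Atp2a2* (chromosome 5, 122453513–122502225) encodes SERCA2, the main pump that refills the calcium store of the endoplasmic reticulum. Its summed level was 1843, 2277 and 1909 CPM in CELF2 RIP, 1194, 1287 and 1389.5 CPM in the IgG control, and 1122, 1150.0 and 1058 CPM in input. The 3 CELF2 RIP libraries were above all 6 control libraries. The log2 fold change was 0.64 over the IgG control (SE 0.11, FDR 0.000794) and 0.86 over input (SE 0.11, FDR 0.000109), both under 2-fold and so not called.

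Most of the excess of *Atp2a2* lay in 1 of its 3 transcript rows. The row NR_027838.1, which carries the RefSeq prefix for a noncoding transcript, stood at 753, 1247 and 667 CPM in CELF2 RIP, 221, 211 and 184 CPM in the IgG control, and 262, 235 and 182 CPM in input. The rows NM_001110140.3 and NM_009722.3, the coding transcripts, together stood at 1090.4, 1031 and 1241 CPM in CELF2 RIP, 973, 1077 and 1206 CPM in the IgG control, and 861, 915 and 876 CPM in input. NR_027838.1 thus held 40.8%, 54.7% and 35.0% of the gene's counts in CELF2 RIP, 18.5%, 16.4% and 13.2% in the IgG control, and 23.3%, 20.4% and 17.2% in input, with no overlap between CELF2 RIP and the controls. Such separation of shares was not counted over all rows, and rows of *Atp2b2* and *Atp2b4* showed it as well. Summed over coding rows alone, a setting added after the data were seen, the log2 fold change of *Atp2a2* was 0.049 over the IgG control (SE 0.11, FDR 0.739) and 0.35 over input (SE 0.11, FDR 0.0230).

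In the test of single rows, where 39129 rows entered with TMM factors of their own, NR_027838.1 rose over the IgG control by 1.87 on the log2 scale (FDR 0.00214) and over input by 1.48 (FDR 0.00577). The call over the IgG control held with each library left out, whereas the one over input was lost without CELF2 RIP replicate 1, without IgG control replicate 1 or 2 and without any 1 input library (largest FDR 0.0282). With replicate number as a block, which treats libraries of the same number as matched, the FDR over input was 0.0108 at a log2 fold change of 1.46. The test of a row's share against the rest of its gene did not pass for NR_027838.1, with an FDR of 0.0240 against the IgG control and 0.182 against input. kallisto divides reads between overlapping transcripts, and the uncertainty of that division is not part of these tests.

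**Figure D2:**
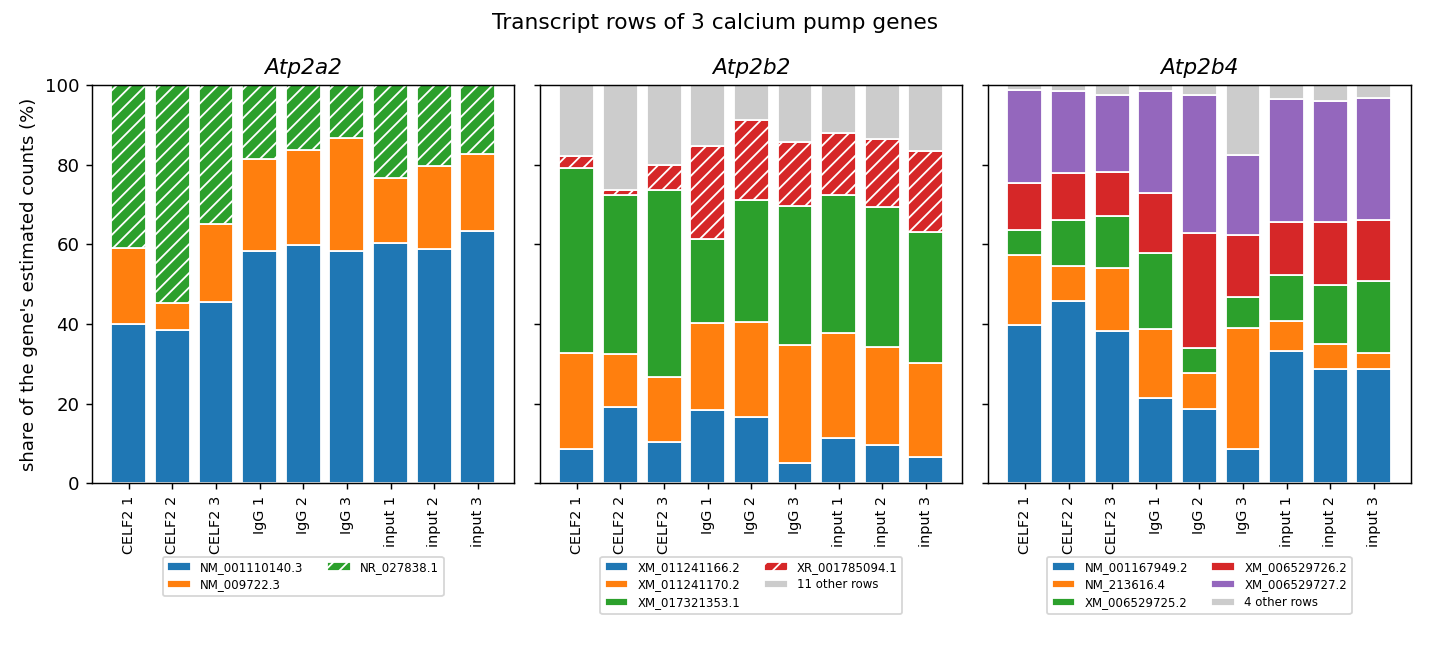
Share of each gene's estimated counts (y axis, percent) held by each transcript row in the 9 libraries (x axis), for *Atp2a2*, *Atp2b2* and *Atp2b4*. Hatched blocks are rows with a noncoding prefix, and rows that reach 10% in no library, noncoding ones among them, are pooled in grey. The hatched *Atp2a2* block is 35.0–54.7% of the bar in CELF2 RIP and 13.2–23.3% in the controls, and the hatched *Atp2b2* block is 1.31–6.34% against 15.6–23.4%.

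Among the plasma membrane pumps, *Atp2b4* had the largest rise and *Atp2b1* the smallest difference. *Atp2b4* (chromosome 1, 133702674–133801059) encodes PMCA4, the isoform tied to calcium signalling near the membrane in many tissues. Its level was 656, 812 and 693 CPM in CELF2 RIP, 306, 313 and 329 CPM in the IgG control, and 396, 379.7 and 369 CPM in input. All 3 CELF2 RIP libraries were above all 6 controls, and each control group was tight. *Atp2b4* rose over the IgG control by 1.19 on the log2 scale (SE 0.11, FDR 1.48e-05), and the call held with each library left out (1.08–1.25) and without IgG control replicates 1 and 2 together (1.02). Over input the log2 fold change was 0.92 (SE 0.10, FDR 4.67e-05), with a 95% interval from 0.68 to 1.15 that spans the 2-fold limit.

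*Atp2b2* (chromosome 6, 113743831–114042613) encodes PMCA2, a fast pump of neurons and of the hair cells of the inner ear. Its level was 918, 1045 and 954 CPM in CELF2 RIP, 564, 567 and 645 CPM in the IgG control, and 674, 614 and 621 CPM in input. The CELF2 RIP libraries were again above all 6 controls. The log2 fold change was 0.72 over the IgG control (SE 0.10, FDR 0.000209) and 0.61 over input (SE 0.10, FDR 0.000492), and neither reached 2-fold. Summed over coding rows alone, these values were 0.98 and 0.84.

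*Atp2b1* (chromosome 10, 98914630–99026143) encodes PMCA1, the isoform found in nearly every cell type. Its level was 268, 313 and 287 CPM in CELF2 RIP, 279, 210.4 and 258 CPM in the IgG control, and 265, 256 and 201 CPM in input. CELF2 RIP overlapped the IgG control, and its lowest library was just above the highest input library. The log2 fold change of *Atp2b1* was 0.22 over the IgG control (95% interval −0.10 to 0.53, FDR 0.224) and 0.27 over input (−0.050 to 0.58, FDR 0.129). These intervals lie inside the 2-fold limits, and both signs turned when libraries were scaled by the total of protein-coding counts (−0.16 and −0.20).

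**Figure D3:**
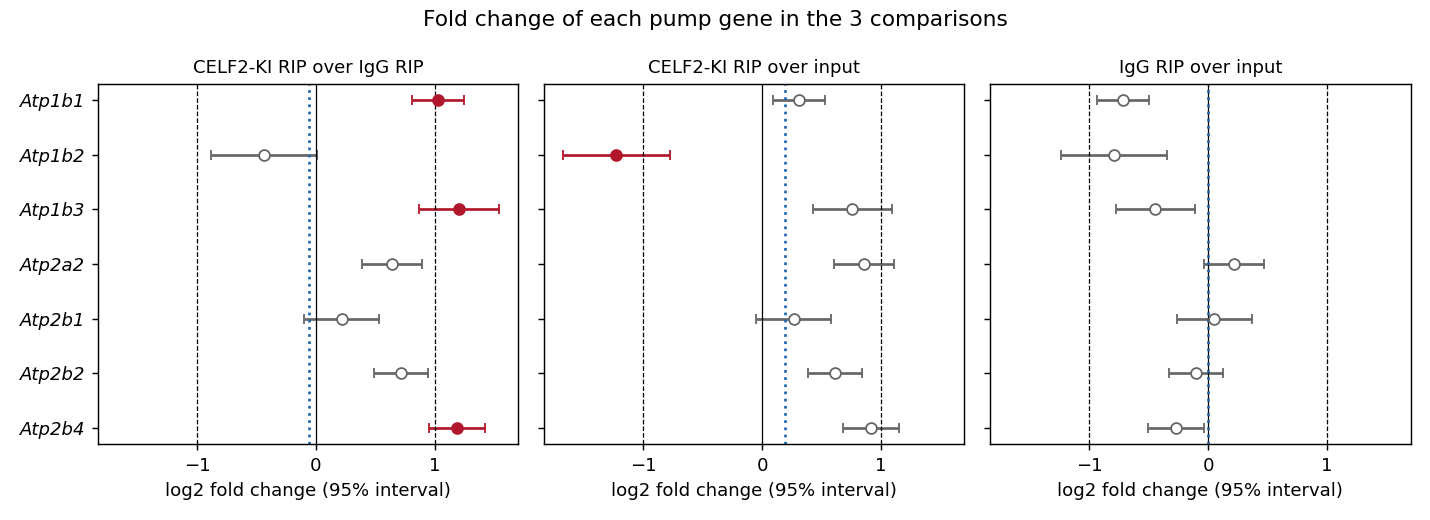
Log2 fold change (x axis) of each pump gene (y axis) with its 95% interval, for CELF2 RIP over the IgG control, CELF2 RIP over input and the IgG control over input. Filled red points passed the FDR and the 2-fold limit (dashed lines), open points did not, and the blue dotted line is the median of all genes tested (−0.056, 0.19 and −0.0031). In the first panel 3 points are filled, 1 on the negative side in the second, and 0 in the third.

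Across the 7 genes the median log2 fold change was 0.72 over the IgG control and 0.61 over input, where the medians of all genes tested were −0.056 and 0.19. All 3 CELF2 RIP libraries were above all 6 control libraries in 5 of 7 genes, beside 25.2% of all genes, and the other two were *Atp1b2* and *Atp2b1*. Against each control alone, the CELF2 RIP libraries were all above the IgG control in 5 of 7 (30.0% of all genes) and all above input in 6 of 7 (42.1%). They were all below the IgG control in 0 (27.4%), all below input in 1 (31.8%) and below both in 0 (19.9%). The comparisons share the CELF2 RIP libraries, so the 2 sets of fold changes are not independent of each other.

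The IgG control was compared with input to see how the members behaved in a precipitate without the antibody to CELF2. The 7 genes were not called in either direction there, beside 6.79% of all genes called higher and 5.01% called lower, and DESeq2's Wald test also called 0. At an unadjusted p under 0.05, 0 were higher and 4 were lower in edgeR. Under an FDR of 0.01 alone, 0 were higher (12.0% of all genes) and 1, *Atp1b1*, was lower (11.2%). The 3 *Atp1b* genes and *Atp2b4* had all 3 IgG control libraries below all 3 input libraries (29.4% of all genes), with log2 fold changes of −0.71 for *Atp1b1* (FDR 0.000579), −0.79 for *Atp1b2*, −0.44 for *Atp1b3* (FDR 0.0379) and −0.27 for *Atp2b4* (FDR 0.0620). *Atp2a2*, at 0.22 (FDR 0.148), was the only member with all IgG control libraries above input (27.1% of all genes), and its sign turned when scaled by the total of all rows (−0.24). Without IgG control replicates 1 and 2, *Atp1b3* was at −0.17 and *Atp2b2* turned from −0.10 to 0.019.

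Ratios of paralogous genes within a library do not depend on how libraries are scaled, and 6 pairs were compared in each contrast. With 3 libraries against 3, an exact two-sided permutation test cannot give a p below 0.1, so no pair could pass 0.05. How often pairs of any genes separate without overlap was not counted, so the separations below have no share of all pairs beside them. Within a family 1 of the 3 log2 ratios follows from the other 2, so they are not 3 independent results. *Atp1b1* exceeded *Atp1b2* 6.12, 11.3 and 8.81 times in CELF2 RIP, 3.45, 3.40 and 2.47 times in the IgG control, and 3.04, 3.16 and 2.45 times in input. The log2 ratio of *Atp1b1* to *Atp1b2* was higher in CELF2 RIP by 1.47 than in the IgG control (exact permutation p = 0.1, the smallest it can give, adjusted p = 0.12) and by 1.56 than in input (p = 0.1, adjusted p = 0.1, exact permutation). The libraries of CELF2 RIP did not overlap with either control.

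For *Atp1b2* to *Atp1b3*, the ratio of counts was 0.955, 0.462 and 0.656 in CELF2 RIP, 2.11, 1.94 and 2.18 in the IgG control, and 2.71, 2.32 and 2.97 in input. In every control library *Atp1b2* had the larger count, and in every CELF2 RIP library *Atp1b3* had. The differences of −1.65 and −2.002 in log2 ratio were the largest of the 6 pairs in their contrasts, with the same exact p and adjusted p as the pair before. *Atp1b1* to *Atp1b3* had a log2 ratio that overlapped between CELF2 RIP and the IgG control (difference −0.18, exact permutation p = 0.3, adjusted p = 0.3) and was lower than in input (difference −0.44, exact permutation p = 0.1, adjusted p = 0.1).

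The 3 plasma membrane pumps separated from each other as well. The ratio of *Atp2b1* to *Atp2b4* counts was 0.409, 0.385 and 0.413 in CELF2 RIP, 0.909, 0.672 and 0.784 in the IgG control, and 0.668, 0.675 and 0.545 in input. Its log2 value was lower in CELF2 RIP, with differences of −0.96 against the IgG control and −0.64 against input, without overlap. For *Atp2b1* to *Atp2b2* the differences were −0.49 and −0.34, and for *Atp2b2* to *Atp2b4* they were −0.47 and −0.30, also without overlap. In all of these pairs the exact permutation p was 0.1, with adjusted p = 0.12 against the IgG control and 0.1 against input.

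**Figure D4:**
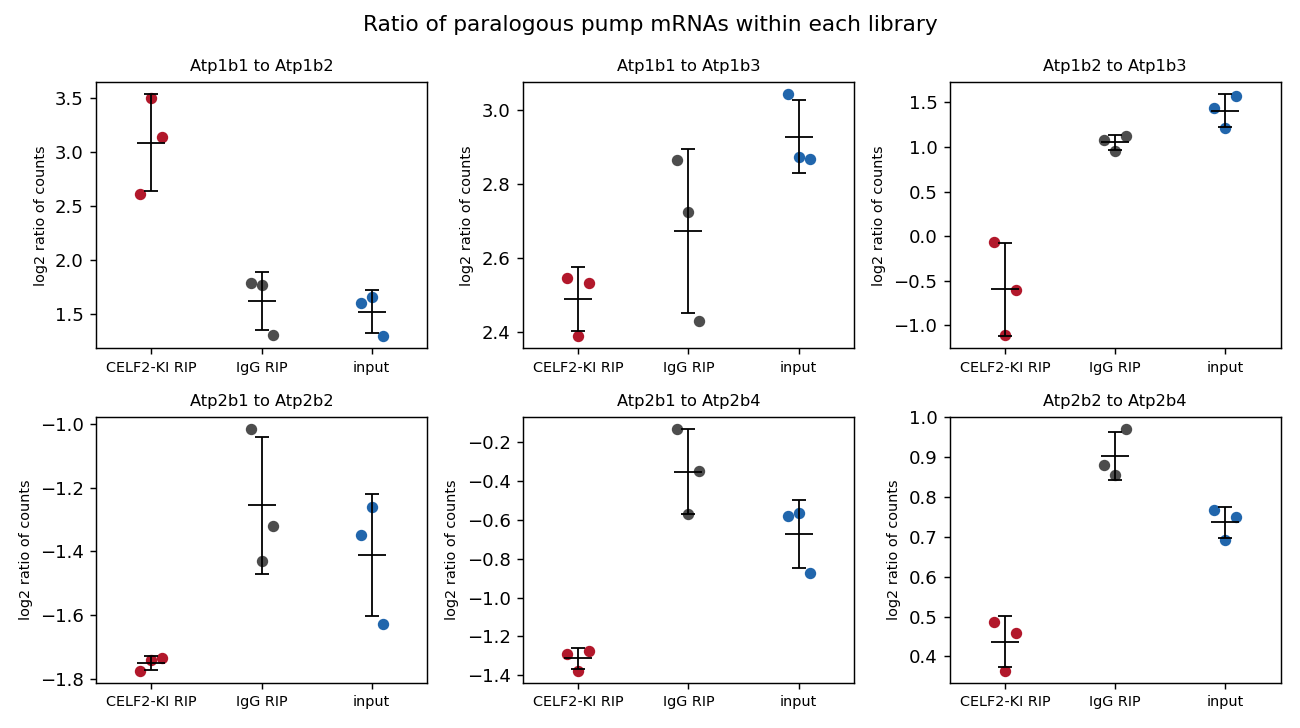
Log2 ratio of the counts of 2 paralogous pump genes (y axis, scale set per panel) in the 3 CELF2 RIP, 3 IgG control and 3 input libraries (x axis). Points are libraries and bars give the mean with SD. CELF2 RIP overlaps a control in 1 panel, *Atp1b1* to *Atp1b3*, where it overlaps the IgG control.

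Of the 36 transcript rows, 29 passed the filter, 7 did not, and 1 row, of *Atp2b1*, had no count in any library. In the test of single rows 3 rose over the IgG control (3.19% of all rows tested were called higher) and 1 fell (3.14%). Against input 1 rose (0.940%) and 1 fell (4.51%). In the IgG control over input 0 rose (0.879%) and 0 fell (1.65%) in edgeR, with 2 and 8 at an unadjusted p under 0.05 and 0 and 3 in DESeq2's Wald test. Rows move by a scale of their own, since the median log2 fold change of all rows was −0.20 over the IgG control and −0.14 over input. *Atp1b1*, which has a single row, was 0.79 over the IgG control on that scale and 1.03 on the scale of genes.

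Of the rows called, the one with the largest rise over the IgG control was NM_001167949.2 of *Atp2b4*, a curated coding transcript. It held 39.7%, 45.7% and 38.3% of the gene's counts in CELF2 RIP, 21.5%, 18.6% and 8.73% in the IgG control, and 33.2%, 28.6% and 28.6% in input. It rose over the IgG control by 2.32 on the log2 scale (FDR 0.00234), a call that held with each library left out (2.04–2.54), while over input the value was 0.88 (FDR 0.0908). Its share did not pass the share test (FDR 0.139 against the IgG control). NM_007502.4, the curated row of *Atp1b3*, rose over the IgG control by 1.22 (FDR 0.00842), but among the 9 fits with a library left out it passed in 1, without IgG control replicate 3 (largest FDR of the others 0.0270), and had an FDR of 0.0305 with the replicate block.

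Both rows of *Atp1b2* were lower, each against a different control. NM_013415.5, the curated row, fell against input by 1.80 on the log2 scale (FDR 0.00522, and 0.0207 with the replicate block), and XM_017314232.1, a predicted transcript, fell against the IgG control by 1.74 (FDR 0.00888, and 0.0284 with the block). XM_017314232.1 held 14.1%, 11.6% and 14.1% of the gene's counts in CELF2 RIP, 36.8%, 26.4% and 24.7% in the IgG control, and 6.73%, 8.97% and 6.28% in input. The call for NM_013415.5 held in 3 of the 9 fits with a library left out, those without CELF2 RIP replicate 1 or IgG control replicate 1 or 3 (largest FDR of the others 0.0265), and that for XM_017314232.1 in 1 of 9, without CELF2 RIP replicate 1 (0.0357).

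The share test covered 28 member rows, and the share of 1 row changed in both contrasts. XR_001785094.1, a predicted noncoding transcript of *Atp2b2*, held 2.90%, 1.31% and 6.34% of the gene's counts in CELF2 RIP, 23.4%, 19.96% and 15.97% in the IgG control, and 15.6%, 17.1% and 20.3% in input. Relative to the rest of the gene its log2 fold change was −2.50 against the IgG control (FDR 0.00118, beside 0.280% of all rows tested called lower) and −2.34 against input (FDR 0.00315, beside 0.268%). In the test of single rows XR_001785094.1 did not pass, with an FDR of 0.0270 against the IgG control and 0.0209 against input. The *Atp2b2* call against the IgG control was lost without CELF2 RIP replicate 1 or 2 (largest FDR 0.0273), and that against input without CELF2 RIP replicate 1 or 2 or any 1 input library (largest FDR 0.0775). With the replicate block the FDR was 0.0104 against the IgG control and 0.0204 against input. No member row had a higher share by this test (0.438% and 0.237% of all rows were called), although 5 and 2 of the 28 were higher at an unadjusted p under 0.05. No other tool was run on shares.

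The remaining subunits and pumps of both families were given by a list of 13 genes, of which 10 passed the filter. Over the IgG control 1 of the 10 rose and 1 fell, and the same counts held against input. Among all genes 13.4% rose and 13.5% fell over the IgG control, and 14.6% rose and 15.5% fell against input. The medians of the list were −0.11 over the IgG control and 0.29 over input, beside −0.056 and 0.19 for all genes. *Atp2c1*, the calcium and manganese pump of the Golgi apparatus, rose over both controls, with 406 ± 62.9 CPM in CELF2 RIP, 187 ± 3.47 CPM in the IgG control and 201 ± 28.8 CPM in input (SD, n = 3 each). Its log2 fold changes were 1.12 (FDR 9.66e-05) and 1.01 (FDR 0.000151), the latter at the 2-fold limit. Scaling by total counts of protein-coding genes moved the median of all genes by −0.37 and −0.46 in these contrasts, and *Atp2c1* was not read under it. *Atp4a*, a catalytic subunit of the proton pump of the stomach, was called lower than both controls, but on 5–7 counts per CELF2 RIP library and 18–23 per IgG control library. It passed the filter through control libraries alone. Its lower calls, the only ones of the list, are therefore no support for a change, and the medians of the list include it.

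*Atp2b3*, the fourth plasma membrane pump, was close to *Atp2b2*, at 0.73 over the IgG control (FDR 0.000104) and 0.70 over input (FDR 0.000109). *Atp2a3*, or SERCA3, was at 0.057 (FDR 0.793) and 0.16 (FDR 0.406). *Atp1a4*, *Atp2a1* and *Atp12a* had mean levels of 2.04 CPM or less in every condition, with FDR of 0.811, 0.0676 and 0.0253 over the IgG control, and were not called.

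Small membrane proteins that bind the pumps, or are tied to them by name, formed a list of 18 genes with 13 tested. Against the IgG control 3 were called higher (13.4% of all genes) and 4 lower (13.5%), and 2 were called higher than input (14.6%) and 6 lower (15.5%). The medians of all 13 were −0.35 and −0.99, beside −0.056 and 0.19 for all genes. *Fxyd6*, an FXYD protein that modulates the Na,K-ATPase, rose over the IgG control by 2.14 (FDR 1.39e-05) and over input by 1.11 (FDR 0.000441), with 704–1191 CPM in CELF2 RIP, 181–217 CPM in the IgG control and 381–450.0 CPM in input. Other scalings were not read for *Fxyd6*. *Fxyd1* and *Fxyd2*, of the same family, had 2–4 and 1 counts per CELF2 RIP library, 14–20 and 5–14 per IgG control library, and 218–373 and 90–105 per input library. These 2 genes passed the filter through control libraries alone, so their lower calls are no support for a change, and without them 2 of the list were lower than the IgG control and 4 lower than input. The medians given above still hold *Fxyd1* and *Fxyd2*, whose values lie below them, and are likewise no support for a fall of the list.

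Sodium-calcium exchangers share the removal of cytosolic calcium with the PMCA pumps and depend on the sodium gradient of the Na,K-ATPase. Of 9 such genes, all tested, 1 was called higher than the IgG control (13.4% of all genes) and 2 higher than input (14.6%). None was called lower than the IgG control (13.5%) or input (15.5%). The medians were 0.43 and 0.62, beside −0.056 and 0.19 for all genes. *Slc8a1*, the exchanger NCX1, rose over the IgG control by 1.38 (FDR 3.94e-05) and over input by 1.41 (FDR 3.11e-05). Its level was 1828–2713 CPM in CELF2 RIP, 794–894 CPM in the IgG control and 751–870 CPM in input. Other scalings were not read for *Slc8a1*.

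Channels that release calcium from the store or let it enter, with the mitochondrial uniporter, made a list of 15 genes. Against the IgG control 2 were called higher (13.4% of all genes) and 0 lower (13.5%). Against input 1 was called higher (14.6%) and 1 lower (15.5%), and 4 were called higher in the IgG control than in input (6.79%). The medians were −0.20 over the IgG control and 0.57 over input, beside −0.056 and 0.19 for all genes. The 2 higher than the IgG control were *Orai2* (1.19, FDR 2.36e-05) and *Orai1* (1.17, FDR 0.000225), pore subunits of store-operated calcium entry, and neither passed against input. Scaling by total counts of protein-coding genes moved the median of all genes by −0.37 over the IgG control. Neither *Orai1* nor *Orai2* was read under it. None of the 15 was called higher than both controls, beside 7.58% of all genes.

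The remaining marker lists were read in the same way. Choroid plexus markers summed to 46.1–85.5 CPM in CELF2 RIP, 58.4–165 CPM in the IgG control and 177–478 CPM in input, with 1 of 6 called lower than input. Endothelial markers summed to 177–257, 162–364 and 213–336 CPM, with 1 of 6 called lower than the IgG control, and mural and smooth muscle markers to 296–377, 372–443 and 338–365 CPM, with 1 of 6. The mural call was *Acta2*, at 0.32–0.92 CPM in CELF2 RIP and 1.69–3.01 CPM in the IgG control. Its lowest CELF2 RIP library was under the 0.5 CPM of the filter, which *Acta2* passed through control libraries. Its lower call is therefore no support for a change. Erythroid markers summed to 75.2–78.4, 285–453 and 710.4–918 CPM, with 4 of 5 tested called lower than the IgG control. Among all genes 13.5% were called lower than the IgG control and 15.5% lower than input. Striated muscle, where *Atp2a2* is abundant, was represented by 2 of 6 markers past the filter, which summed to 4.17 CPM or less in every library, and *Actc1*, *Tnnt2*, *Myl7* and *Ckm* had 15 counts or fewer in each.

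Genes with the most similar profile over the 9 libraries were taken for the members at the ends of the ranking over the IgG control. For *Atp1b3* they were *Sub1*, *Pgrmc2* and *Gda*, each with a Pearson r of 0.996 of log2 CPM, and for *Atp1b2* they were *Atp5c1* (0.997), *Fam20c* (0.996) and *Tubb2b* (0.994). Each is among the highest over all genes tested and describes 9 libraries that share 3 conditions and their depth.

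**Figure D5:**
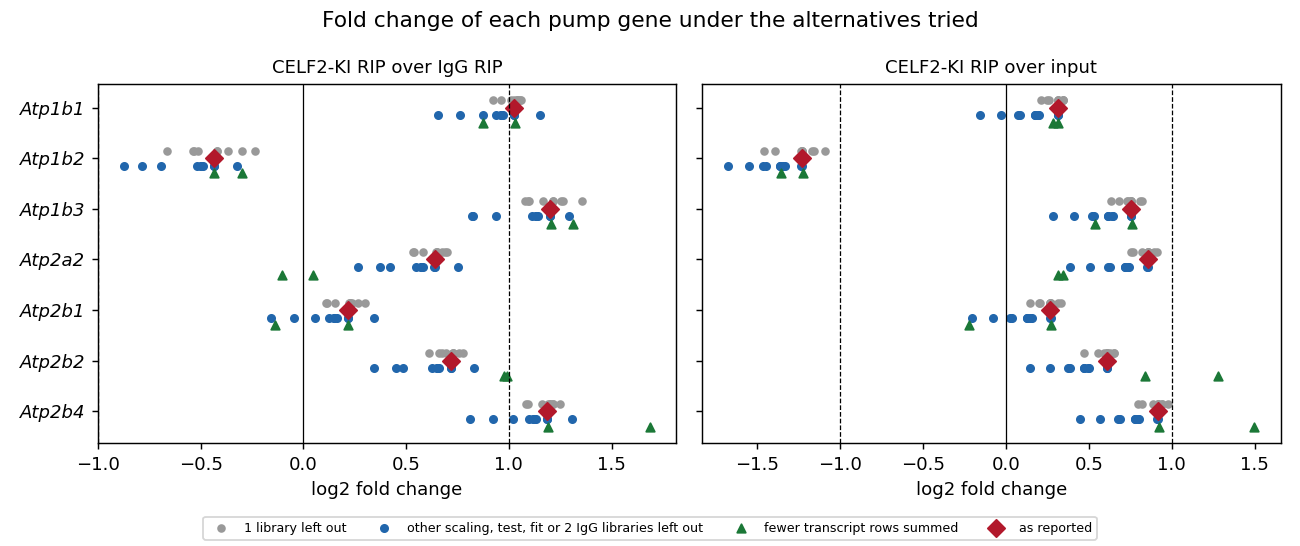
Log2 fold change (x axis) of each pump gene (y axis) over the IgG control and over input as reported (red diamonds), with 1 library left out (grey), under another scaling, test or fit (blue) and with fewer transcript rows summed (green triangles). Dashed lines mark the 2-fold limits. *Atp2a2* over the IgG control moves from 0.64 to 0.049 with coding rows and to −0.10 with curated coding rows, and *Atp2b4* over input moves from 0.92 to 1.498 with curated coding rows.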

How the data were processed

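The authors depleted rRNA, trimmed the reads, removed remaining rRNA reads and quantified transcripts with kallisto 0.51.1, and deposited a single table of estimated counts per RefSeq transcript, not normalized (build mm10 per the labels). The paper names an Ensembl transcriptome, whereas the rows are RefSeq. Rows were matched by accession, without the version, to a RefSeq gene table of GRCm38.p6 (86714 of 107384 matched; 36 of the 54 accessions it lists for the 7 genes were in the table), summed per gene and rounded. Coding genes that reached 0.5 CPM in 3 or more libraries entered edgeR 4.0.16 (R 4.3.3) with TMM scaling, 1 mean per condition and all 9 libraries; rows were tested alike, and row shares with edgeR's diffSpliceDGE. Ratios used a prior count of 0.5. Python 3.11.15, scipy 1.17.1 and DESeq2 1.42.0 were also used, and the scripts were tested on simulated data.

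Members, gene lists, tests and the rule for named genes were chosen with earlier results of these data known. Named genes are the members, the tested genes of the list of other subunits (some of which are not reported here), up to 3 called genes per other pathway list with the largest change over the IgG control, and the 3 genes most alike to the highest and lowest member. The lists covered other pump subunits, small regulators, exchangers, store release and entry, other P-type ATPases, and markers of excitatory neurons, radial glia, astrocytes, choroid plexus, endothelium, mural and smooth muscle, striated muscle and erythroid cells.

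No pair of replicates agreed within sampling noise (chi-square per gene 11.8–43.5). Over 11530 genes, deviations of same-numbered libraries from their condition's mean correlated at 0.185, 0.122 and 0.213 between CELF2 RIP and input, at −0.070, 0.038 and −0.011 between CELF2 RIP and the IgG control, and at 0.087, 0.064 and 0.0079 between the IgG control and input. The correlations were largest, though weak, between CELF2 RIP and input, and libraries of unlike number were not compared. Whether the number marks a pair is thus not settled, and a block for it entered as an alternative. Reads carry no molecular identifiers, so intervals cover the spread of libraries, duplicates included.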

Additional observations from a re-analysis of the deposited data

How the results depend on the processing

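Of the 4 calls of members, the fall of *Atp1b2* against input was lost under 1 alternative only, the test against a 2-fold threshold (glmTreat), and the rise of *Atp2b4* over the IgG control under 3. Scaling by total counts of protein-coding genes, upper-quartile scaling and glmTreat each left 0 members called higher than the IgG control, and glmTreat left 0 called lower than input. Relative to the median of all genes, *Atp1b1*, *Atp1b3* and *Atp2b4* stood at 1.08, 1.25 and 1.24 with coding totals. Without IgG control replicates 1 and 2, added after seeing the data, 1 member was higher than the IgG control, and the lone IgG control library was then assumed to vary like the others. With curated NM rows, 2 members (*Atp2b2* at 1.28, *Atp2b4* at 1.498) were higher than input and 1 higher than both controls. The curated rows of *Atp2b2* held on average 5.67% and 3.85% of its counts in CELF2 RIP, and 4.70% and 1.22% in input. The value of 1.28 is thus of a small part of *Atp2b2*, which stood at 0.61 over input with all rows summed. With scaling by total counts of all rows, 2 members were lower in the IgG control than input. *Atp1b1* was not called in 11 of 21 alternatives, including DESeq2 size factors (0.96) and no filter (0.94).

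Among the members, signs turned for values that were not called. *Atp2a2* over the IgG control was −0.10 with NM rows, and the IgG control over input −0.24 with the total of all rows. *Atp2b1* over the IgG control was −0.16 with coding totals, −0.048 with upper quartile and −0.14 with NM rows. Over input it was −0.20 with coding totals, −0.079 with all rows and −0.22 with NM rows. *Atp2b1* in the IgG control over input was −0.047 with coding totals, −0.42 with all rows, −0.023 with DESeq2 size factors and with its Wald test, −0.081 with NM rows, and from −0.081 (without input replicate 3) to 0.15 with 1 library left out. *Atp1b1* over input was −0.15 with coding totals and −0.030 with all rows. *Atp2b2* in the IgG control over input was 0.29 with NM rows and 0.019 without IgG control replicates 1 and 2. The cause was not tested.

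Rows were less stable. Higher than the IgG control, 5 were called with gene-level TMM factors (added after seeing the data) and 6 with DESeq2. Lower than the IgG control, 0 were called with no filter or the replicate block, 2 with DESeq2 and 0–1 with a library left out. Higher than input, 0 were called with the block, 4 with DESeq2 and 0–1 with a library left out. Lower than input, 0 were called with the block, 2 with DESeq2 and 0–1 with a library left out. Lower in the IgG control than input, 1 was called with no filter, 3 with DESeq2 and 0–3 with a library left out. With 5 CPM as the filter, 1 share was higher against the IgG control (NR_027838.1, FDR 0.00156). The share calls went to 0 with the replicate block in both contrasts, and were 0–1 with a library left out. The block changed no call of a member gene, and genes of the other lists were not read with it. Ratios of paralogs kept their direction with a prior count of 5 and with each library left out.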

Other observations

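P-type ATPases that move lipids, polyamines, copper and other cations were read as a list of 22 genes, of which 20 were tested. Against the IgG control 2 were called higher (13.4% of all genes) and 2 lower (13.5%), and 3 were called higher than input (14.6%) and 0 lower (15.5%). The medians were −0.10 and 0.14, beside −0.056 and 0.19 for all genes. *Atp8a1*, a phospholipid flippase, rose over both controls, with 953 ± 215 CPM in CELF2 RIP, 402 ± 42.8 CPM in the IgG control and 446 ± 15.8 CPM in input (SD, n = 3 each) and log2 fold changes of 1.24 (FDR 9.10e-05) and 1.10 (FDR 0.000169). *Atp13a3*, a polyamine transporter, rose as well, by 1.23 (FDR 7.12e-05) and 1.46 (FDR 2.39e-05). Neither *Atp8a1* nor *Atp13a3* was read under other scalings. *Atp11b*, another flippase, fell against the IgG control by 1.73 (FDR 0.00156) but not against input (−0.23, FDR 0.578), and its level in the IgG control was above input by 1.51 (FDR 0.00514).

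*Ryr2*, the ryanodine receptor of heart and neurons, was chosen after its values were seen, and was not read under other scalings. It rose over input in CELF2 RIP by 1.06 (FDR 7.00e-05) and in the IgG control by 1.16 (FDR 0.000230), and the log2 fold change of CELF2 RIP over the IgG control was −0.10 (FDR 0.524), with 293 ± 36.1 CPM against 314 ± 32.0 CPM (SD, n = 3 each).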
